A study of Mus musculus with 6 samples.

Results

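POU homeobox factors were followed in mouse embryos that lack Dlx1 and Dlx2, in the lateral ganglionic eminence (LGE). The group was set by gene name and holds 8 of the 21286 genes in the count table: Pou2f1, Pou2f2, Pou3f1, Pou3f2, Pou3f3, Pou3f4, Pou4f1 and Pou6f1. The LGE is a swelling of the embryonic ventral forebrain that gives rise to striatal projection neurons and olfactory bulb interneurons. RNA came from tissue dissected at embryonic day 16.5, in 3 libraries of wild type littermates and 3 of Dlx1/2 -/- mutants. All 6 came from mice of mixed C57BL/6J, 129S6 and CD1 background. The labels do not describe the mutant alleles, and they do not tell whether the 6 libraries stand for 6 embryos. The p-values therefore measure only how far these libraries scatter, which may be technical. Library names begin alike within each genotype and differently between them, so any preparation batch that goes with the names and the genotype cannot be told apart.

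POU factors bind DNA through a bipartite domain, in which a POU-specific domain and a POU homeodomain are joined by a flexible linker. The site classically bound is the octamer ATGCAAAT. Class II members (Pou2f1 and Pou2f2, also called Oct1 and Oct2) are widespread or lymphoid factors. Class III members (Pou3f1 to Pou3f4) are factors of neural progenitors and young neurons that often act beside SOX proteins, and class IV and VI members (Pou4f1, Pou6f1) act mainly in neurons.

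Total counts ran from 10711630 to 16588359 per library, lowest in wild type replicate 1. The targeted genes were low in all 3 mutant libraries: Dlx1 lay between 109.3 and 137.6 CPM there against 831.4 to 898.4 CPM in wild type, and Dlx2 between 15.5 and 18.7 against 418.8 to 470.7 CPM. CPM are counts scaled to a common library size after TMM normalisation. Of 12 markers of striatal neurons, fixed as a list, 12 fell and 0 rose in the mutant, and of 10 markers of LGE identity 6 fell and 2 rose. These are bulk samples, in which fewer cells of a type and less RNA per cell cannot be told apart.

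The 4 class III genes are each annotated as 1 exon in 1 transcript, and because they are close relatives, their sequences show how far reads could be assigned to the wrong one. The longest runs of identical bases shared by the transcripts of Pou3f1 and its 3 relatives, all within the coding sequence, are given here from GENCODE M21.
Pou3f1 and Pou3f2: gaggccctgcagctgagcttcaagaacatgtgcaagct
Pou3f1 and Pou3f3: ttcaagaacatgtgcaagctcaagccgct
Pou3f1 and Pou3f4: ctgagcttcaagaacatgtgcaagct
The longest is 38 bases, and no stretch of 50 bases is shared between any of the 4. The other pairs share runs of 23 to 29 bases. Of the 50-base stretches of Pou4f1, 23 of 4623 also occur in Pou4f2, a gene with 0 to 3 reads per library. Pou2f1 shares 2869 of 17031 with Cd247, a T cell receptor subunit gene that overlaps its end on the opposite strand and had 16 to 30 reads per library.

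The stretches before the start sites are shown for the 3 class III genes that RefSeq's promoter table (GRCm38.p6) holds, since 2 of these genes rose and 1 fell in the mutant. Each runs 5′ to 3′ on the gene's own strand, from 250 bases before to 50 bases after the start, and capitals mark the CCAAT box or, on the other strand, ATTGG.
Pou3f2, chr4:22488317-22488616, minus strand: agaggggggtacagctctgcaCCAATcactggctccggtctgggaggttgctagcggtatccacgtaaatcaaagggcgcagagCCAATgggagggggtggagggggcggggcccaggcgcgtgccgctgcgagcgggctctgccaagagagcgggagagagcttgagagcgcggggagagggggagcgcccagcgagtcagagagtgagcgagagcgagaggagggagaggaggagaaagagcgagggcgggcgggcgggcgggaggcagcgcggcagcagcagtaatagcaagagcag
Pou3f3, chr1:42695518-42695817, plus strand: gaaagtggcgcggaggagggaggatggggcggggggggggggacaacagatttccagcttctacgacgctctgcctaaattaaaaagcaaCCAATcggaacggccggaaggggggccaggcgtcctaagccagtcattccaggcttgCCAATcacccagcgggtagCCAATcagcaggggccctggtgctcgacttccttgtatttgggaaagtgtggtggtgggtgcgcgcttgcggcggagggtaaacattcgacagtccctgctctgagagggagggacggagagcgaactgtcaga
Pou3f4, chrX:110814129-110814428, plus strand: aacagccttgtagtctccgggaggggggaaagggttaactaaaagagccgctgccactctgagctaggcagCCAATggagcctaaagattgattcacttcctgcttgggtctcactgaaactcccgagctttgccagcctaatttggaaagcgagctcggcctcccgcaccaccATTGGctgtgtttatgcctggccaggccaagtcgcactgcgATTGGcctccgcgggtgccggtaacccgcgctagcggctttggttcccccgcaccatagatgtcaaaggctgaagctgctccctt
All 3 windows hold the CCAAT box, 2 times in Pou3f2 and 3 times each in Pou3f3 and Pou3f4. The other 6 windows of the group (3 of Pou2f1, 1 each of Pou2f2, Pou4f1 and Pou6f1) do not hold it, and 37.41% of all 32851 windows of this length do. The octamer ATGCAAAT, found in 1.74% of all windows, and TAATTA, a core bound by many homeodomain proteins and found in 5.29%, were searched on both strands and matched in 0 of the 9 windows. The letters CCAAT thus occurred both in the 2 genes that rose and in Pou3f4, which fell. Pou3f1, which also fell, has no window there, and a part of CCAAT in the changes was not tested. The windows of Pou3f2, Pou3f3 and Pou3f4 were 67.7%, 60.3% and 57.7% G and C, all above the median of 52.7% over all windows, and that of Pou4f1 reached 78.3%.

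All 8 genes passed the filter on low counts, Pou4f1 through its mutant reads alone. The question was which of them change when Dlx1 and Dlx2 are lost. In the mutant 5 rose (Pou2f1, Pou2f2, Pou3f2, Pou3f3 and Pou4f1), 2 fell (Pou3f1 and Pou3f4) and 1 (Pou6f1) did not pass the test (edgeR's quasi-likelihood test over 15326 genes, with a threshold of 0.05 on the p adjusted by Benjamini-Hochberg). Among all genes tested, 24.0% were called, 11.2% higher and 12.8% lower. With libraries scaled to their totals alone the balance turned, from 1715 higher and 1958 lower to 1969 higher and 1759 lower genes, and 6 members were higher and 2 lower. The 3 mutant values lay on one side of the 3 wild type values in 8 of the 8 genes, against 41.9% of all tested genes. Changes of at least 2-fold were found in 4 members, Pou2f2 and Pou4f1 higher and Pou3f1 and Pou3f4 lower, where 2.84% of all tested genes rose and 4.04% fell that far. Pou4f1 had to be high in the mutant to be tested at all. The members were chosen with results of these libraries known, so these shares describe them and test nothing about the family. The median log2 fold change over all tested genes was 0.0028.

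**Figure D1:**
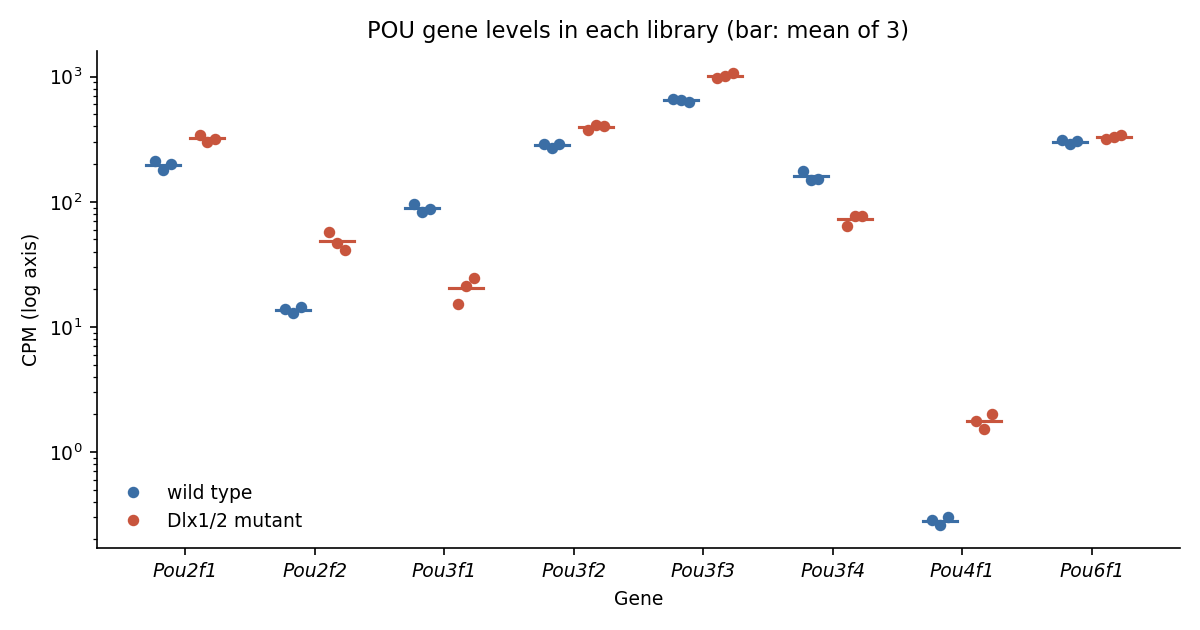
CPM (log axis) of the 8 POU genes in the 3 wild type (blue) and 3 Dlx1/2 mutant (red) libraries, 1 point per library, with a bar at each mean. Pou3f1 and Pou3f4 sit lower in every mutant library than in every wild type library, and the other 6 genes sit higher, Pou6f1 by the least.

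**Figure D2:**
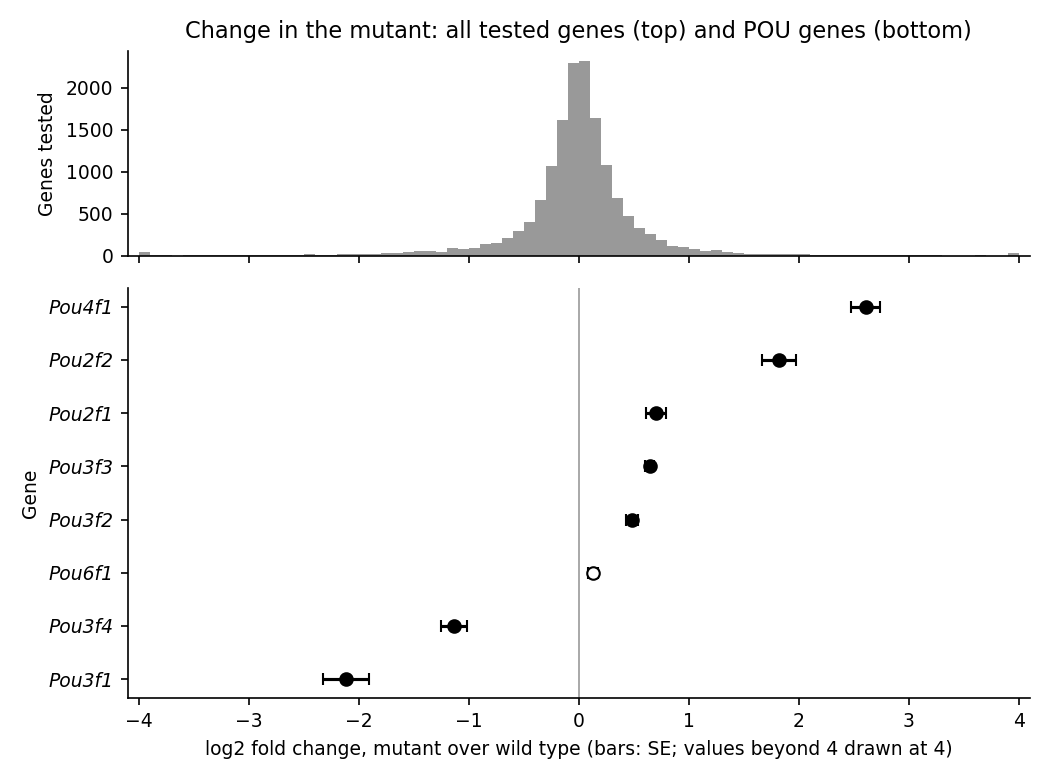
Top, number of tested genes by log2 fold change (mutant over wild type), values beyond 4 drawn at 4. Bottom, the same for the 8 POU genes, with bars for the SE and open circles for genes that did not pass the test. The points run from −2.12 for Pou3f1 to 2.61 for Pou4f1, while most tested genes lie near 0.

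Among the class III genes, Pou3f1 and Pou3f4 fell while Pou3f2 and Pou3f3 rose. Pou3f1 (ENSMUSG00000090125, GRCm38 chromosome 4, 124656807 to 124660655, plus strand), also known as Oct6 or SCIP and best known as a regulator of myelination in Schwann cells, fell the most of the 8 genes. It was at 95.8, 83.6 and 87.8 CPM in wild type replicates 1 to 3 and at 15.4, 21.4 and 24.8 CPM in mutant replicates 1 to 3. The groups were far apart, and the mutant libraries differed more among themselves, relative to their mean, than the wild type ones. The log2 fold change was −2.12 ± 0.21 (SE, n = 3 each; edgeR adjusted p = 5.05e-05), a 4.34-fold fall. Gm2164, an antisense RNA that overlaps the start of Pou3f1, went from 7, 5 and 11 reads in wild type to 1, 2 and 3 reads in the mutant and was too rare to test. No source used here states whether counting used the strand. Reads of this pair therefore cannot be told apart in the overlap, which holds 282 of the 3800 stretches of 50 bases of Pou3f1.

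Pou3f4 (ENSMUSG00000056854, chromosome X, 110814280 to 110817207, plus strand), or Brn4, is a factor of the ventral forebrain and of the inner ear, where its loss causes deafness. It was at 177.5, 150.5 and 153.1 CPM in wild type and at 64.4, 76.8 and 77.7 CPM in the mutant. Every mutant library held less than every wild type library, with a log2 fold change of −1.14 ± 0.12 (edgeR adjusted p = 9.02e-05). Mutant replicate 1 was the lowest library for Pou3f1 as well as for Pou3f4.

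Pou3f3 (ENSMUSG00000045515, chromosome 1, 42695768 to 42703176, plus strand), or Brn1, works with Pou3f2 in progenitors and upper-layer neurons of the cortex. It was at 660.6, 652.3 and 632.8 CPM in wild type and at 967.7, 1009 and 1063 CPM in the mutant. Its wild type libraries lay close together and all mutant libraries lay above them, a log2 fold change of 0.64 ± 0.043 (edgeR adjusted p = 1.05e-04). Pou3f2 (ENSMUSG00000095139, chromosome 4, 22482780 to 22488366, minus strand), or Brn2, also directs hypothalamic neuroendocrine neurons and is used to convert fibroblasts into neurons. It was at 291.0, 267.3 and 291.0 CPM in wild type and at 375.5, 407.8 and 406.4 CPM in the mutant. The groups did not overlap and the change was the smallest of the 7 called, 0.49 ± 0.056 on the log2 scale (edgeR adjusted p = 4.75e-04).

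Because the class III genes changed in opposite directions, the make-up of this class changed more than its sum. Levels of different genes were compared per length, with the FPKM values that the authors deposited, whose gene length equals the annotated exon for these 4 genes. The summed FPKM of the class was 221.3, 208.6 and 212.3 in wild type and 226.7, 243.0 and 249.3 in the mutant. The mean sum thus went from 214.1 ± 6.54 to 239.7 ± 11.6 FPKM (SD, n = 3). Pou3f3 made up 40.5% ± 1.43 of this sum in wild type and 57.5% ± 0.924 in the mutant, and Pou3f2 went from 23.5% ± 0.909 to 29.8% ± 0.574. Pou3f4 went from 25.3% ± 1.24 to 10.5% ± 0.554 and Pou3f1 from 10.7% ± 0.290 to 2.22% ± 0.407. For each of the 4 shares the libraries of the groups did not overlap. With 3 libraries in each group the smallest p that a two-sided exact permutation test can give is 0.1, which each share reached (p = 0.1, adjusted over the 4 shares 0.1), so none could pass 0.05.

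**Figure D3:**
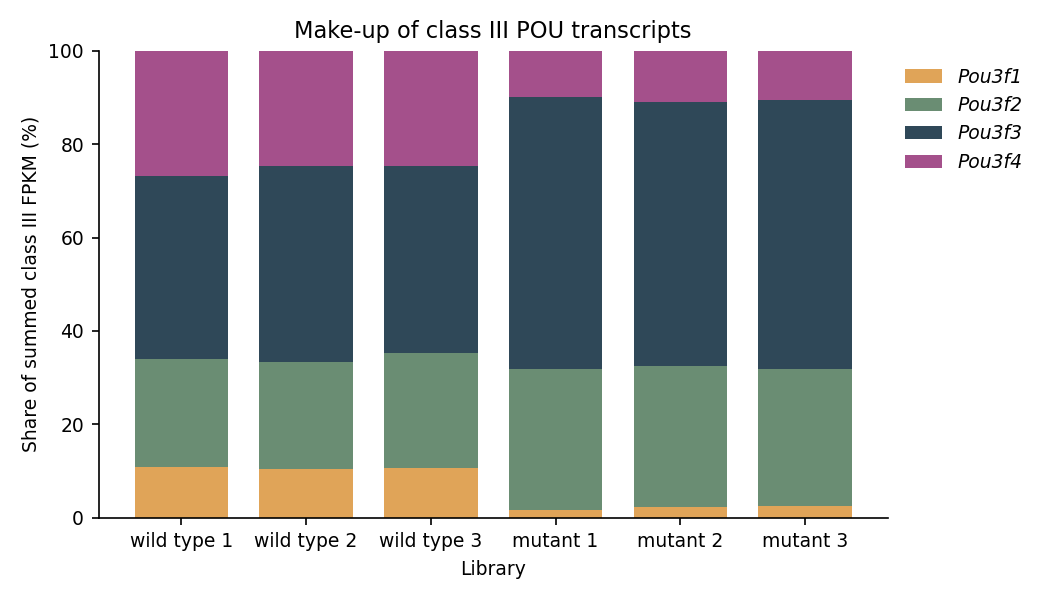
Share (%) of Pou3f1, Pou3f2, Pou3f3 and Pou3f4 in their summed FPKM, 1 stacked bar per library. In the 3 mutant bars Pou3f3 takes 56.5% to 58.4%, against 39.3% to 42.1% in wild type, and the shares of Pou3f4 and Pou3f1 are smaller.

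Ratios taken within a library do not depend on the scaling between libraries. The ratio of Pou3f3 to Pou3f4 FPKM was 1.47, 1.71 and 1.63 in wild type and 5.94, 5.19 and 5.41 in the mutant. That of Pou3f2 to Pou3f1 was 2.09, 2.20 and 2.28 in wild type and 16.8, 13.1 and 11.3 in the mutant. The ratio of the 2 genes that fell, Pou3f4 to Pou3f1, also differed, at 2.37 ± 0.072 in wild type and 4.79 ± 0.699 in the mutant, so they did not fall by the same factor. That of Pou3f3 to Pou3f2, the 2 genes that rose, was 1.73 ± 0.101 and 1.93 ± 0.055. Of these 4 ratios each had non-overlapping groups and p = 0.1 in the exact permutation test, raw and adjusted.

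Both class II genes rose. Pou2f2 (ENSMUSG00000008496, chromosome 7, 25087344 to 25179726, minus strand), or Oct2, is best known from B lymphocytes and is also made in neurons. It was at 13.97, 12.9 and 14.3 CPM in wild type and at 57.7, 46.6 and 40.8 CPM in the mutant. All mutant libraries were well above wild type, with a log2 fold change of 1.82 ± 0.15 (edgeR adjusted p = 4.83e-05), a 3.53-fold rise. Mutant replicate 1, the lowest library for Pou3f1 and Pou3f4, was the highest for Pou2f2. The list of microglia and lymphoid markers had 0 of 5 tested genes called. Cx3cr1 was at 12.6 ± 2.20 CPM in wild type and 17.5 ± 2.76 CPM in the mutant (edgeR adjusted p = 0.0556). It was higher in each mutant library than in any wild type library, and the other tested genes had overlapping groups. The summed level of the list was 40.3 to 50.9 CPM in wild type and 47.2 to 57.5 CPM in the mutant. Among its B cell genes, Cd79a and Cd79b were too rare to test.

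Pou2f1 (ENSMUSG00000026565, chromosome 1, 165865154 to 166002678, minus strand), or Oct1, is made in most cell types and takes part in the transcription of histone H2B and small nuclear RNA genes. It was at 213.0, 178.9 and 199.4 CPM in wild type and at 342.2, 301.9 and 317.4 CPM in the mutant. The groups did not overlap and the log2 fold change was 0.70 ± 0.090 (edgeR adjusted p = 3.48e-04). Of the known partners of the class II factors fixed as a list (the coactivator genes Pou2af1 and Hcfc1 and the 5 Snapc genes of the snRNA-activating complex), 6 were tested, 0 rose and 1 fell. That 1 was Snapc2, from 38.4 ± 1.68 to 29.7 ± 1.77 CPM (edgeR adjusted p = 0.00972). Pou2af1, the B cell coactivator of both class II factors, had at most 2 reads in any library. The median over the list was 0.01 on the log2 scale.

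Pou4f1 (ENSMUSG00000048349, chromosome 14, 104461676 to 104467999, minus strand), or Brn3a, specifies sensory, habenular and some midbrain neurons and was the rarest of the 8 genes. It had 3, 4 and 5 reads in wild type replicates 1 to 3 and 29, 24 and 32 reads in mutant replicates 1 to 3, or 0.287, 0.260 and 0.302 against 1.77, 1.52 and 2.01 CPM. The wild type values were near the floor of 3 counts, which is 0.181 to 0.287 CPM in a library, so the gene was low in every library and higher in each of the mutant ones. Over the groups it had 12 and 85 reads, a ratio per total count of 6.34 with a 95% Clopper-Pearson interval of 3.45 to 12.7 that covers counting error only. The fitted log2 fold change was 2.61 ± 0.13 (edgeR adjusted p = 4.83e-04).

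Genes of the neurons that make Pou4f1 moved both ways. Of 18 entries of this list 9 were tested, of which 4 rose and 3 fell, with a median of −0.11 on the log2 scale. Lhx1 and Lhx5 lie above this median even at the bottom of their counting intervals, so their exact size of change cannot move it. Nr4a2, a nuclear receptor of habenular and dopamine neurons, rose from 2.74 ± 1.10 to 19.1 ± 2.51 CPM (edgeR adjusted p = 1.14e-04). The LIM homeobox genes Lhx1 and Lhx5 had 3 and 2 reads over the wild type group and 71 and 61 over the mutant group. Ntrk3, the receptor of neurotrophin 3, fell from 306.5 ± 23.6 to 153.0 ± 15.8 CPM (edgeR adjusted p = 1.00e-04). Defining genes of sensory neurons such as Tlx3, Prph and Avil were too rare to test, and Drgx was not analysed here. Chrnb4 and Barhl2, also too rare to test, had 4 and 3 reads over the wild type group and 33 and 20 over the mutant group. Both were higher in each mutant library than in any wild type library, and the other untested genes of the list had overlapping groups.

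Pou6f1 (ENSMUSG00000009739, chromosome 15, 100575318 to 100599984, minus strand), or Brn5, is made widely in the nervous system. It was at 310.5, 287.7 and 303.5 CPM in wild type and at 315.7, 331.1 and 339.3 CPM in the mutant. The highest wild type and the lowest mutant library were almost level, and the log2 difference of 0.13 ± 0.045 did not pass the test (edgeR adjusted p = 0.0933). With libraries scaled to their totals alone it passed (0.15 on the log2 scale, edgeR adjusted p = 0.0407, over all alternatives 0.0407 to 0.244).

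Of the other genes of the family, Pou2f3, Pou4f2, Pou4f3 and Pou5f2 had at most 4 reads in any library, and Pou1f1 and Pou5f1 were not analysed here.

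To put the 8 genes on one scale, CPM was divided by the length of all annotated exons merged. In wild type the order was Pou3f3 (87.5 CPM per kb), Pou3f4 (54.8), Pou3f2 (50.7), Pou6f1 (43.3), Pou3f1 (23.1), Pou2f1 (11.9), Pou2f2 (1.66) and Pou4f1 (0.061). Of these neighbours only Pou3f4 and Pou3f2 had overlapping libraries. In the mutant Pou3f3 (136.8 CPM per kb) was followed by Pou3f2 (71.0), Pou6f1 (47.3), Pou3f4 (24.9) and Pou2f1 (19.3). Pou2f2 (5.87) and Pou3f1 (5.33) then overlapped, and Pou4f1 (0.378) was again last. Pou3f4 thus went from the second place to the fourth, and Pou3f1 from the fifth to the seventh. For the genes with several isoforms, Pou2f1, Pou2f2, Pou4f1 and Pou6f1, exons were merged over several transcripts, which can make their levels per kb too low.

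Among partners and targets of class III factors, several genes of progenitors rose beside Pou3f2 and Pou3f3. Of 10 entries 8 were tested, of which 5 rose, 0 fell and 3 did not pass, with a median of 0.35 on the log2 scale. Dll1, a Notch ligand gene that class III POU factors help to control, rose from 70.3 ± 5.93 to 244.7 ± 10.7 CPM (edgeR adjusted p = 2.06e-06). Nes, the intermediate filament gene of neural stem cells with a POU site in its enhancer, rose from 354.2 ± 34.0 to 482.6 ± 45.7 CPM (edgeR adjusted p = 0.00847). Of the SOX partners, Sox4 rose from 1900 ± 51.9 to 2623 ± 137 CPM (edgeR adjusted p = 0.00106), and the other 3 did not pass. Sox2 was at 293.2 ± 25.3 CPM in wild type and 346.0 ± 26.4 CPM in the mutant (edgeR adjusted p = 0.0576). Sox11 was at 1947 ± 99.5 and 1711 ± 71.4 CPM, lower in each mutant library than in any wild type library (edgeR adjusted p = 0.0640), and the rare Sox10 at 3.69 ± 2.22 and 3.24 ± 0.723 CPM (edgeR adjusted p = 0.722). These counts are read against the 11.2% of all tested genes that rose.

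Markers of other cells and regions were measured beside these genes, and their part in the changes of the POU genes was not tested. Of 9 tested markers of pallial neurons 4 rose and 1 fell, and their summed level, all 11 genes included, was 423.3 to 450.6 CPM in wild type and 461.2 to 501.0 CPM in the mutant. Most of this sum was Cux1 and Cux2, so it shows little of the changes of the rarer genes. Cux1 was at 260.7 ± 15.3 CPM in wild type and 257.6 ± 11.9 CPM in the mutant and did not pass. Neurod2, a factor of young pallial neurons, rose from 11.1 ± 5.83 to 58.6 ± 12.7 CPM and was highest in mutant replicate 1, and Neurod6 and Neurod1 rose too. Tbr1 and Eomes, defining factors of pallial neurons and their progenitors, did not pass the test, at 12.6 ± 7.08 and 8.62 ± 5.14 CPM in wild type and 6.91 ± 2.77 and 4.34 ± 2.40 CPM in the mutant. Cux2, an upper-layer factor, fell from 129.1 ± 3.47 to 69.8 ± 1.17 CPM. The summed level of 9 hypothalamic markers found was 39.3 to 115.6 CPM in wild type and 465.3 to 544.9 CPM in the mutant, where Otp alone held 445.8 ± 31.9 CPM. In wild type nearly all of the sum was Nkx2-1, at 37.7, 73.8 and 113.8 CPM in replicates 1 to 3. Otp was at 0.558 ± 0.354 CPM there. Of the 2 tested genes of this list 1 rose, Otp. Nkx2-1 did not pass, at 75.1 ± 38.1 CPM in wild type and 70.7 ± 32.2 CPM in the mutant.

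Oligodendrocyte and Schwann cell markers, given because Pou3f1 acts in myelinating cells, had 2 of 6 tested genes higher and 0 lower, with sums of 109.0 to 144.8 CPM in wild type and 161.7 to 179.1 CPM in the mutant. Olig2, which ventral progenitors make too, rose from 41.0 ± 5.26 to 70.5 ± 5.88 CPM. The other gene that rose was Pdgfra, from 19.2 ± 4.65 to 31.5 ± 2.71 CPM (edgeR adjusted p = 0.0187). Erbb3, a neuregulin receptor gene of Schwann cells, was too rare to test. Red blood cell genes had 2 of 6 tested higher and 0 lower, with sums of 435.1 to 643.7 CPM and 582.2 to 780.7 CPM.

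Genes next to the POU genes were examined to see whether a change reached beyond the POU gene itself. Of 41 genes of the table that overlap a POU gene or end within 100000 bases of one, 31 were tested and 6 were called. This share is near the 24.0% of all tested genes called in either direction. All 6 were higher, and 11.2% of all tested genes were called higher. Of the noncoding RNAs at Pou3f3, Pantr1 and Pantr2 rose, and AC122898.1, which overlaps it, did not pass the test. Pantr1, a long noncoding RNA that starts 926 bases from Pou3f3 on the opposite strand, went from 501, 605 and 860 reads in wild type to 1220, 1355 and 1407 reads in the mutant, or 46.4 ± 6.44 to 82.9 ± 7.49 CPM (log2 fold change 0.84 ± 0.14, edgeR adjusted p = 0.00132). Pantr2, which lies 3885 bases beyond the end of Pou3f3, rose from 13.2 ± 1.52 to 30.5 ± 3.65 CPM (1.21 ± 0.14, edgeR adjusted p = 2.75e-04). AC122898.1, on the same strand as Pou3f3, was at 5.26 ± 0.844 CPM in wild type and 6.11 ± 0.909 CPM in the mutant, with overlapping groups (edgeR adjusted p = 0.458).

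At Pou3f2, the noncoding RNA Gm30731, 2182 bases from its start on the opposite strand, rose from 2.11 ± 0.421 to 3.56 ± 0.317 CPM (edgeR adjusted p = 0.0358). Within Pou2f2, the noncoding RNA D930028M14Rik on the opposite strand rose from 5, 9 and 14 reads to 42, 37 and 27 reads (log2 fold change 1.74 ± 0.28, edgeR adjusted p = 0.00442). This RNA passed the filter on low counts only through its mutant libraries. The exons of Pou2f2 share 28 of 8531 stretches of 50 bases with all other genes, so spliced reads of the 2 genes are mostly distinct, while unspliced Pou2f2 reads from this interval cannot be told apart from it without strand. The other 9 tested neighbours of Pou2f2 and the 4 of Pou3f1 did not pass the test. Near Pou6f1, which itself did not pass, Tfcp2 and Dazap2 were called higher, by 0.31 on the log2 scale each. No gene of the table lay within that distance of Pou3f4.

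**Figure D4:**
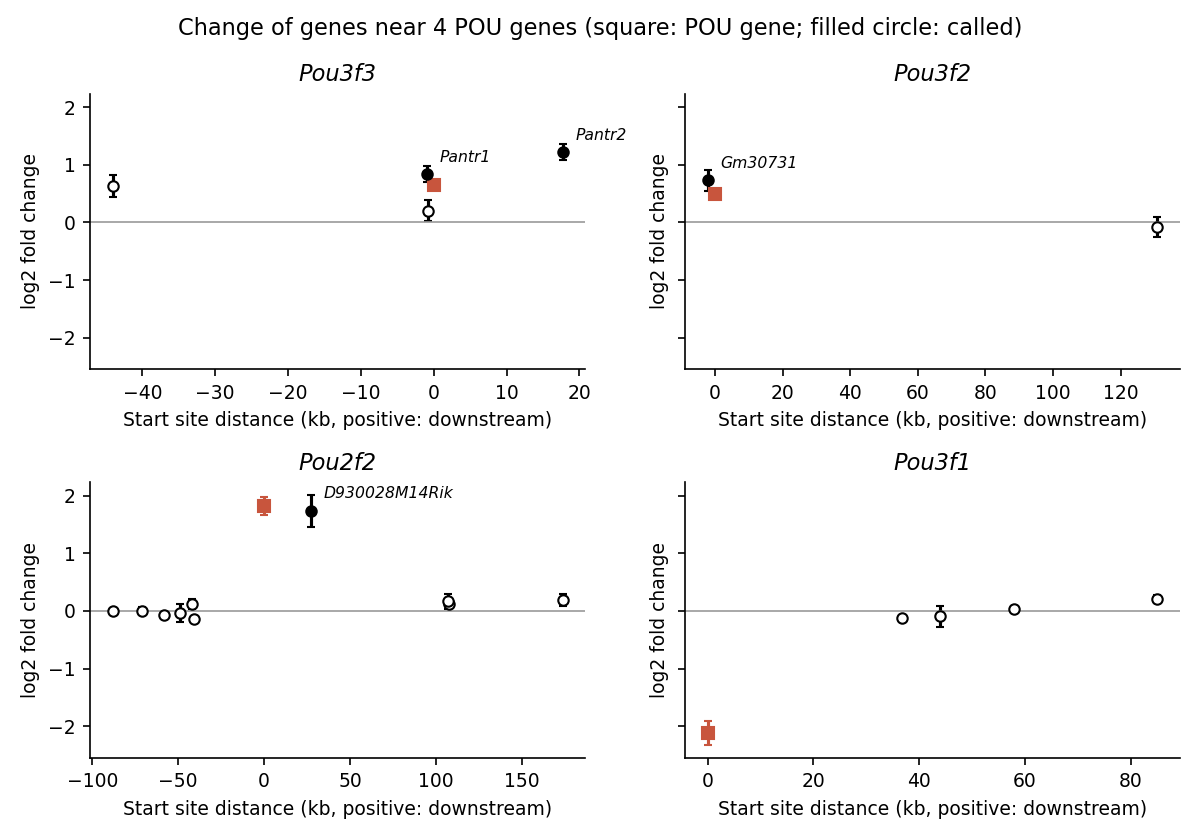
Log2 fold change (mutant over wild type, bars SE) of the tested genes around Pou3f3, Pou3f2, Pou2f2 and Pou3f1 against the distance of their start sites in kb, with the POU gene as a red square. Filled circles passed the test and are named: Pantr1 and Pantr2 at Pou3f3, Gm30731 at Pou3f2 and D930028M14Rik at Pou2f2, while the 4 neighbours of Pou3f1 stay near 0.

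The genes with the profiles most like those of the extreme members were sought by the Euclidean distance of log2 CPM over the 6 libraries, each gene centred on its mean, among 11704 genes with a mean of at least 5 CPM. Closest to Pou4f1 were Npnt, which encodes an extracellular matrix protein (distance 0.240), Edar, a receptor of the tumour necrosis factor family (0.313), and A830082K12Rik (0.405). Closest to Pou3f1 were Syt6, a synaptotagmin gene (0.318), Zfp503, a zinc finger gene of the developing striatum (0.345), and Epha8, an ephrin receptor gene (0.401). Zfp503 was at 197.0, 181.4 and 191.6 CPM in wild type and 29.8, 35.2 and 46.5 CPM in the mutant, with the same order of mutant libraries as Pou3f1. With 6 libraries in 2 groups, genes with a similar size of change come out as alike.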

How the data were processed

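The deposited table gives whole-number read counts and FPKM per gene and library, per the file headers, with group mean FPKM and a p-value from the authors whose test is not stated. GRCm38.p4, mm10, edgeR, StringTie 1.3.0 and HISAT2 2.0.4 appear in the submitters' processing notes, with no roles. No source used here states the counter, the annotation or the strand setting. Columns were matched to samples by library name. The length implied by the deposited FPKM was within 1% of the sum of all distinct annotated exons for 68.6% of 11393 well-covered genes and of the merged exons for 9.4%, so FPKM understates genes with many isoforms. FPKM was used for class III genes only.

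Counts were fitted in R 4.3.3 with edgeR 4.0.16 (filterByExpr, TMM, glmQLFit and glmQLFTest, two-sided, no block, 15326 genes tested, biological coefficient of variation 0.122), with Benjamini-Hochberg adjustment. SEs come from log2 CPM with 0.5 added to each count. Exact permutation tests used scipy 1.17.1. The script was tested on simulated counts. Positions, neighbours and transcripts come from GENCODE M21 (GRCm38), where 21146 of 21286 gene IDs were found, and promoters from RefSeq (7 of 8 members matched). The authors' deposited table gives Pou6f1 p = 0.269 and the other 7 members at most 2.91e-05.

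The members and 11 lists (111 entries) were chosen with earlier results of these data known. The lists were the other POU genes, partners and targets of class III factors, Pou2 partners, Pou4f1 neuron genes, and markers of striatal, pallial, hypothalamic, oligodendrocyte and Schwann, microglial and lymphoid, erythroid and LGE cells. Named were the members, the targeted genes, other POU genes, up to 4 called genes of a list with the smallest adjusted p (or, with no call, the 2 highest), neighbours within 100000 bases, and the 3 nearest profiles of the members with the largest rise and fall. The text leaves some of these out and names a few other list genes, a choice made after their values were seen, and some list genes are not reported here. Alternatives were a replicate block, leaving out each library, RLE factors, no filter, DESeq2 1.42.0, a 2-fold minimum and an adjusted p below 0.01. Scaling to library totals alone was added after seeing the data. The setting planned for normalised values alone was not needed.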

Additional observations from a re-analysis of the deposited data

How the results depend on the processing

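Over 13 alternatives for each of the 8 members no log2 fold change reversed. The 2-fold minimum and the adjusted p below 0.01 reuse the main fit, so their log2 fold changes could not reverse. Of 104 values 100 kept their side of the threshold. The exceptions were Pou2f1, Pou3f2 and Pou3f3, which changed by less than 2-fold and so do not pass a 2-fold minimum, and Pou6f1 with library totals. With the 2-fold minimum 2 members were higher, and 436 genes were higher and 619 lower of all tested. With an adjusted p below 0.01, 875 genes were higher and 1116 lower. Leaving out each library in turn left 5 members higher and 2 lower in every case, with 1211 to 1626 genes higher and 1416 to 1956 lower of all tested, and 17 to 22 list genes higher and 22 to 26 lower. The shares of Pou3f1, Pou3f2, Pou3f3 and Pou3f4 then differed by −8.65 to −8.25, 6.10 to 6.91, 16.3 to 17.7 and −15.2 to −14.1 percentage points.

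Deviations of same-numbered libraries correlated at −0.176, 0.043 and −0.168, and those of differently numbered libraries at −0.136 to 0.250. Replicate numbers thus gave no sign of pairing, which this check cannot exclude. With the replicate block, 1223 genes were higher and 1458 lower, and 5 members were higher and 2 lower. Pou4f1, at 3 to 5 reads per wild type library, is the member whose size of change depth limits most.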
